A study of Mus musculus with 35 samples.

Results

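Transcripts of 9 complement components and receptors were followed in microglia sorted from 3 brain regions: C1qa, C1qb and C1qc, the 3 chains of C1q; C3 and C4b; C3ar1 and C5ar1, the anaphylatoxin receptors; and Itgam and Itgb2, which together encode complement receptor 3. They were taken by gene symbol, with no threshold on their values, and all 9 were in the table of 21236 genes. The cells came from adult mice carrying both Tmem119-2A-CreERT2 and Ai14(RCL-tdTomato)-D. In these animals a Cre recombinase made under the control of the microglial gene Tmem119 switches on the red fluorescent protein tdTomato once tamoxifen is given. Every mouse received tamoxifen, and every sample holds tdTomato-positive cells, so there was no untreated group. The table has 35 samples from 12 mice, 6 male and 6 female: 12 from the midbrain, 12 from the striatum and 11 from the PFC (prefrontal cortex), where mouse 3 has no sample. RNA was amplified as full-length cDNA and sequenced, and 37680501 to 54131421 reads per sample were counted on genes.

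In the brain, microglia are the main source of C1q, the molecule that recognises tagged surfaces and opens the classical pathway. C1q activates proteases that cut C4 and C2, and the enzyme these form cuts C3. Fragments of C3 stay on the surface and are bound by complement receptor 3, a phagocytic receptor made of CD11b (Itgam) and CD18 (Itgb2). The small fragments C3a and C5a act on C3ar1 and C5ar1 and attract and activate myeloid cells. This pathway is known for the removal of synapses by microglia during development and in disease models.

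Levels are given in CPM, read counts relative to the size of each library after scaling between samples with TMM factors. 10 of 10 homeostatic microglial markers, Tmem119, P2ry12 and Csf1r among them, were in the table and summed to between 41720 and 53433 CPM per sample, with a lower mean in the midbrain (44345 CPM) than in the striatum (49286) and the PFC (48177). The column taken as the striatum of mouse 3 carries PFC in its name and striatum in its label. Without it no call among the 9 transcripts changed. Mice 7 to 12 differed from mice 1 to 6 at 23.9% of all genes (adjusted p under 0.05, edgeR), for which the labels give no reason. That fit treats samples of the same mouse as independent, so the share can be too high. Values within each set of mice are given beside the calls that were lost in either set. In bulk samples, fewer expressing cells and less RNA per cell cannot be told apart.

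A main effect of region (Benjamini-Hochberg adjusted p under 0.05, edgeR quasi-likelihood F-test) was found for 3 of the 9 transcripts, C4b, C3ar1 and Itgb2, against 8.89% of all genes. A pair of regions was called different where the region effect held, the unadjusted p was under 0.05 and the fold change was over 1.2. By that rule PFC and midbrain differed for 2 of 9 (5.99% of all genes), both lower in the PFC (3.24% of all genes were lower there). Striatum and midbrain differed for 3 of 9 (6.47%), all lower in the striatum (2.98%). Striatum and PFC differed for 1 of 9 (3.14%), lower in the striatum (0.833%). The median log2 fold change over the 9 was -0.08 for PFC against midbrain, -0.21 for striatum against midbrain and 0.00 for striatum against PFC, and over all genes 0.01 in each pair.

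**Figure D1:**
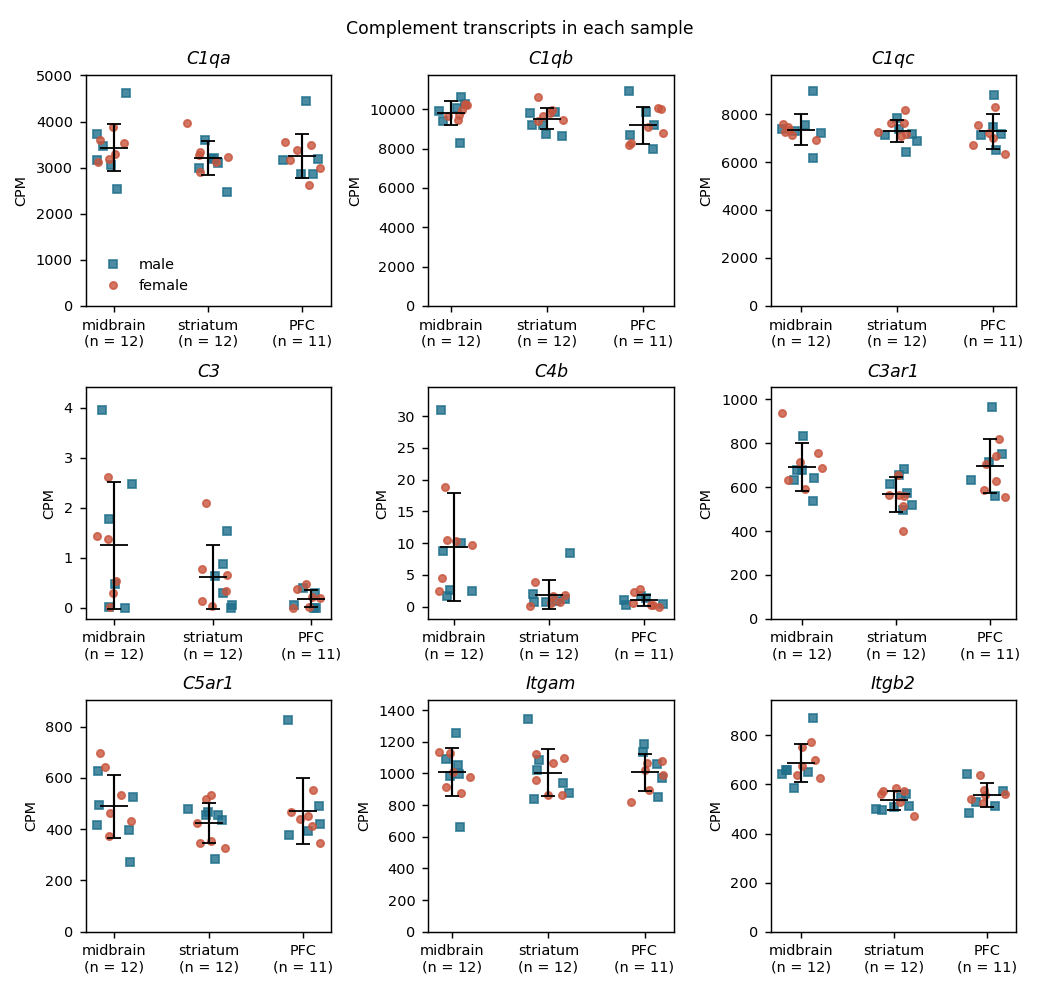
CPM of the 9 transcripts in each of the 35 samples, by region (squares male, circles female). Black bars give the mean and SD. C4b and Itgb2 were highest in the midbrain and C3ar1 was lowest in the striatum, while the 3 C1q chains and Itgam had similar means in all 3 regions.

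The 3 C1q genes lie side by side on the minus strand of chromosome 4 (GRCm38, GENCODE M21): C1qb at chr4:136880129-136886187, C1qc at chr4:136889804-136893065 and C1qa at chr4:136895917-136898803, within 18.7 kb. Together they gave 2.06% ± 0.160 of all scaled reads for midbrain (SD, n = 12), 2.00% ± 0.131 for striatum (n = 12) and 1.97% ± 0.206 for PFC (n = 11). None of the 3 passed the region test, and their neighbouring regions in order of level did not differ beyond the spread.

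C1qa ranged from 2529 to 4627 CPM (median 3381) in the midbrain, from 2461 to 3974 (median 3205) in the striatum and from 2630 to 4435 (median 3176) in the PFC. These ranges overlapped over most of their length. C1qa had a log2 fold change of -0.08 (SE 0.08, 95% confidence interval -0.24 to 0.08) for PFC against midbrain and -0.10 (SE 0.08, -0.26 to 0.06) for striatum against midbrain, with an adjusted p for region of 0.68.

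C1qb, the most abundant of the 9, ranged from 8269 to 10603 CPM (median 9944) in the midbrain, from 8624 to 10613 (median 9550) in the striatum and from 7973 to 10946 (median 9102) in the PFC. The PFC was the lower of these in 9 of 11 mice compared with the midbrain, yet the ranges overlapped almost fully. The log2 fold change was -0.09 (SE 0.05, 95% confidence interval -0.19 to 0.00), with an unadjusted p of 0.053, and the adjusted p for region was 0.43. With the mouse as a replicate block in place of sex, the change was -0.105 (SE 0.035, p = 0.0059, adjusted p = 0.066, edgeR). The region effect did not pass there either (adjusted p = 0.10).

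C1qc ranged from 6163 to 8961 CPM (median 7325) in the midbrain, from 6417 to 8178 (median 7222) in the striatum and from 6328 to 8813 (median 7157) in the PFC. Its means were the closest of the 3, and striatum was above midbrain in 6 of 12 mice and below it in 6. The adjusted p for region was 0.99, and all pairwise log2 fold changes had 95% confidence intervals within -0.12 and 0.11.

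The upstream sequence of C1qb and C1qc is shown because the C1q chains lie together and, as given further on, vary together between mice, and that of C3ar1 because it is the receptor with a lower level in the striatum. The sequences are from RefSeq (GRCm38.p6), 5′ to 3′ on the minus strand, and end where the first annotated exon begins: chr4:136886201-136886450 for C1qb, chr4:136893066-136893164 for C1qc and chr6:122856162-122856407 for C3ar1. Windows were found for 6 of the 9 genes, C1qb, C1qc, C3, C3ar1, C5ar1 and Itgam. Capitals mark matches on either strand to 4 motifs: GAGGAAG (the core bound by PU.1-type ETS factors), TGANTCA (AP-1), the interferon-stimulated response element (GAAA, any 2 bases, GAAA) and the NF-kB motif (GGGA, any 4 bases, CC).
C1qb: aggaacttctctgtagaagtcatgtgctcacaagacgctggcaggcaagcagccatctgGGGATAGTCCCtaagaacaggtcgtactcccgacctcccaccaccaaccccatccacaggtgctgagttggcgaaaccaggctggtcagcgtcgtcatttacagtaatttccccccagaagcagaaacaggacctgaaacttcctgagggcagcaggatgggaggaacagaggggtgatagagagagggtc
C1qc: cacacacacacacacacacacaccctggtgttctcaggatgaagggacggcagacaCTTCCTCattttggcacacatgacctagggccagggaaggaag
C3ar1: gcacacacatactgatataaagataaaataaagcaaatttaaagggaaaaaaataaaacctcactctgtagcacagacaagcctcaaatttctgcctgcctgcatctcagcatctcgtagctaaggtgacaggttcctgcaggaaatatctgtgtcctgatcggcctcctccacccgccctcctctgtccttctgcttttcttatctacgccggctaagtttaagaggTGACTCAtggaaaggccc
The printed part of C1qc holds 1 match to the PU.1-type core, on the opposite strand, and that of C3ar1 holds 1 AP-1 match that begins 18 bases before the end of the sequence shown. C1qb holds 1 stretch that matches the NF-kB motif on both strands, and these matches overlap. Of all 32851 promoter windows of 300 bases, 13.6% hold the PU.1-type core, 7.81% the AP-1 motif, 3.44% the interferon motif and 20.7% the NF-kB motif. The printed parts are shorter, with 250 bases for C1qb, 99 for C1qc and 246 for C3ar1, so these shares are not like for like. A match is a description of the letters and not of binding.

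Compared per kilobase of exon, the order of mean levels over all 35 samples was C1qb (8745 ± 674 CPM per kb, SD, n = 35), C1qc (3789 ± 310) and C1qa (3170 ± 441), then Itgam (200.3 ± 26.9), Itgb2 (195 ± 28.9), C5ar1 (179 ± 43.9) and C3ar1 (151 ± 27.6), and last C4b (0.734 ± 1.11) and C3 (0.135 ± 0.180). Itgam, Itgb2, C5ar1 and C3ar1 lay within 1 SD of their neighbours. The C1q chains were therefore above the receptors, and the receptors above C4b and C3, by far more than the spread between samples.

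C4b encodes C4, the component that C1q-activated proteases cut first. It lies at chr17:34728380-34743882, 65.2 kb from C4a (chr17:34809092-34823464), a near-identical copy, so the split of reads between them is uncertain. C4b ranged from 1.73 to 31.0 CPM (median 9.18) in the midbrain, from 0.0933 to 8.37 (median 1.004) in the striatum and from 0 to 2.76 (median 0.620) in the PFC. The midbrain held more C4b than the PFC in 11 of 11 mice and more than the striatum in 11 of 12, mouse 9 being the exception. The ranges overlapped, with 9 of 11 PFC samples and 8 of 12 striatum samples below the lowest midbrain sample.

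C4b had a log2 fold change of -3.25 (SE 0.63, 95% confidence interval -4.54 to -1.97, adjusted p = 6.6e-04) for PFC against midbrain and -2.33 (SE 0.58, -3.51 to -1.14, adjusted p = 0.010) for striatum against midbrain. Striatum and PFC did not pass (log2 fold change 0.93, SE 0.60, adjusted p = 0.59). Mouse 7 held the highest midbrain value of C4b, and without that mouse these differences from the midbrain were -2.93 and -1.90. Within mice 1 to 6 they were -3.92 and -2.91, and within mice 7 to 12 they were -2.97 and -2.01, where the adjusted p for region was 0.064.

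C4b is also made by oligodendrocytes, astrocytes and fibroblasts, and the levels of their markers are therefore given beside it. All 12 listed oligodendrocyte markers were in the table, 4 of them with means under 1 CPM, and their sum was 307 to 519 CPM per midbrain sample, 301 to 880.3 in the striatum and 232 to 537 in the PFC. All 10 astrocyte markers were in it, with sums of 211 to 268 CPM in the midbrain, 262 to 441 in the striatum and 261 to 506 in the PFC. The mean oligodendrocyte sum was 406 CPM in the midbrain, below the striatum (493) and above the PFC (341), and the mean astrocyte sum was lowest in the midbrain (241, against 359 and 350.0). Most of the astrocyte sum was Slc1a3 (171 CPM in the midbrain, 223 in the striatum and 236 in the PFC). Among astrocyte markers only Gfap had its highest mean in the midbrain (2.28 CPM, against 1.76 and 1.42). Among oligodendrocyte markers only Mbp (129, against 121 and 81.2) and Pdgfra (0.273, against 0.0885 and 0.162) did. The midbrain sample with the most C4b, from mouse 7, had the lowest oligodendrocyte sum of its region (307 CPM), whereas the striatum sample with the most C4b, from mouse 9, had the highest of all samples (880.3 CPM). When the mean log2 CPM of markers of neurons, glia other than microglia and vessels entered the fit as a covariate, C4b changed by -3.77 and -3.46 in PFC and striatum on the log2 scale.

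For fibroblasts, 5 of 8 markers were in the table, each with a mean under 1 CPM, and their sum was 0 to 21.1 CPM in the midbrain, 0.0194 to 1.64 in the striatum and 0 to 0.960 in the PFC. For macrophages of the brain's borders, 9 of 10 were in it, 7 of them with means under 1 CPM, and the sums were 2.65 to 128, 4.84 to 13.3 and 3.76 to 11.1. A single midbrain sample gave each highest sum: mouse 3 for fibroblasts (Dcn at 16.5 CPM) and mouse 6 for border macrophages (Ms4a7 at 97.9 CPM). C4b was 10.04 and 10.4 CPM in these samples, above the median of its region (9.18). Mice 5, 9, 2 and 1, with the least C4b in the midbrain (1.73 to 2.59 CPM), had fibroblast sums of 0.0220 to 0.584 CPM there. Mice 7 and 4, with the most (31.0 and 18.8 CPM), had 1.08 and 2.16 CPM. Mice 11 and 12 went the other way, with 0 and 0.104 CPM at a C4b of 8.69 and 9.67 CPM. Without mouse 6 the log2 fold changes of C4b were -3.15 and -2.18, and without mouse 3 they were -3.25 and -2.25. The part of fibroblasts and border macrophages in the level of C4b was not tested.

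C3, the component on which all activation routes meet, lies at chr17:57203970-57228136 and was the least abundant of the 9. It ranged from 0 to 3.95 CPM (median 0.956) in the midbrain, from 0 to 2.09 (median 0.487) in the striatum and from 0 to 0.465 (median 0.188) in the PFC. A sum of 3 reads, taken here as the limit of detection, is 0.0561 to 0.0789 CPM, a limit that covers counting error only. At or below it were 3 of 12 midbrain, 3 of 12 striatum and 5 of 11 PFC samples. The adjusted p of C3 for region was 0.072, so no pair was called. The log2 fold change for PFC against midbrain was -2.78 (SE 0.84, 95% confidence interval -4.47 to -1.08, adjusted p = 0.036), with a lower level in the PFC in 9 of 11 mice. The highest value was that of mouse 3 in the midbrain, the sample with the most fibroblast transcripts, and without mouse 3 the change was -2.47 (adjusted p = 0.077). Next was the midbrain of mouse 6 (2.61 CPM), with the next highest fibroblast sum (9.02 CPM) and the highest border macrophage sum (128 CPM). The midbrain of mouse 11 followed at 2.47 CPM, with a fibroblast sum of 0. The part of fibroblasts and border macrophages in the result for C3 was not tested.

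**Figure D2:**
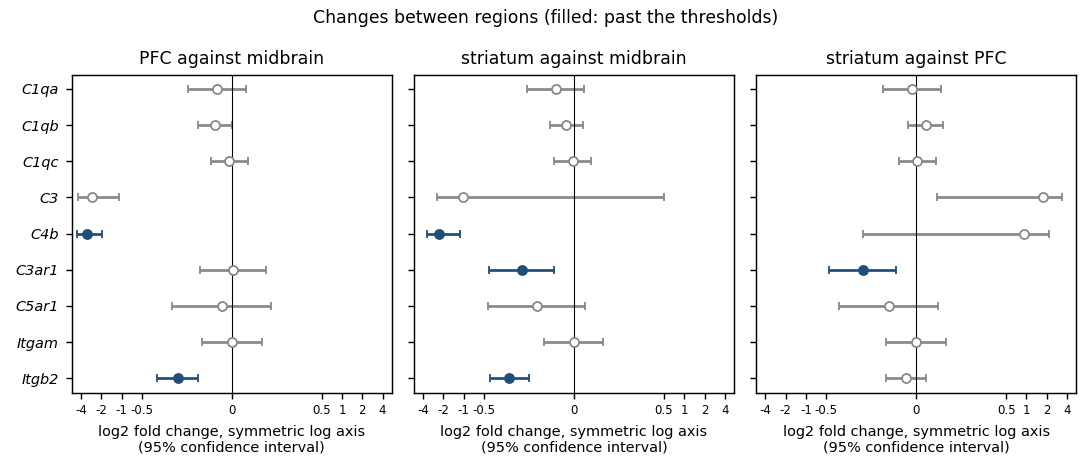
Log2 fold changes of the 9 transcripts for the 3 pairs of regions, with 95% confidence intervals, on a symmetric log axis. Filled points passed the region test and the pairwise rule: C4b and Itgb2 for PFC against midbrain, C4b, C3ar1 and Itgb2 for striatum against midbrain, and C3ar1 for striatum against PFC.

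C3ar1, the receptor for C3a, was lower in the striatum than in the other two regions. It ranged from 535 to 937 CPM (median 678) in the midbrain, from 402 to 684 (median 566) in the striatum and from 554 to 967 (median 704) in the PFC. The ranges overlapped. Striatum was below midbrain in 11 of 12 mice, mouse 5 being the exception, and below PFC in 8 of 11. Its log2 fold change was -0.29 (SE 0.09, 95% confidence interval -0.47 to -0.11, adjusted p = 0.036) against the midbrain and -0.30 (SE 0.09, -0.48 to -0.11, p = 0.0022, adjusted p = 0.12, edgeR) against the PFC, and 0.01 (SE 0.09) between PFC and midbrain.

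The call of C3ar1 rested close to the threshold, with an adjusted p for region of 0.034. Leaving out mouse 3, 6, 8, 9, 10, 11 or 12 raised that p to between 0.053 and 0.101, with log2 fold changes for striatum against midbrain between -0.36 and -0.24 over all 12 such fits. In mice 1 to 6 alone the striatum differed from the midbrain by -0.11 (SE 0.09) and in mice 7 to 12 alone by -0.48 (SE 0.13). From the PFC it differed by -0.08 (SE 0.10) in mice 1 to 6 and by -0.49 (SE 0.13) in mice 7 to 12. In mice 1 to 6 neither difference was called. The difference between these sets of mice was not tested.

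C5ar1, the C5a receptor, ranged from 271 to 698 CPM (median 479) in the midbrain, from 285 to 533 (median 444) in the striatum and from 345 to 824 (median 440.2) in the PFC. It had the widest relative spread of the abundant members, with a coefficient of variation of 24.5% over all samples against 7.71% for C1qb. No region stood apart. Its log2 fold change for striatum against midbrain was -0.21 (SE 0.13, 95% confidence interval -0.48 to 0.06), and the adjusted p for region was 0.59. Within mice 7 to 12 the same change was -0.41 (SE 0.16, adjusted p for region 0.23) and within mice 1 to 6 it was 0.00 (SE 0.15).

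C3ar1 lies at chr6:122847138-122856161 and C5ar1 at chr7:16246743-16259540, 2.59 kb from C5ar2, the second C5a receptor. C5ar2 was at 59.6 ± 9.94 CPM for midbrain (SD, n = 12), 61.0 ± 8.43 for striatum (n = 12) and 61.0 ± 10.6 for PFC (n = 11), and did not pass the region test (adjusted p = 0.95).

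Itgam (chr7:128062640-128118491) and Itgb2 (chr10:77530252-77565708) encode the chains of 1 receptor, but only Itgb2 passed the region test. Itgam ranged from 664 to 1257 CPM (median 1002) in the midbrain, from 836 to 1346 (median 988) in the striatum and from 820 to 1184 (median 1023) in the PFC. Its mean was 1007, 1006 and 1006 CPM in that order. All pairwise log2 fold changes of Itgam rounded to 0.00 with SE 0.08, and the 95% confidence intervals lay within -0.17 and 0.17.

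Itgb2 ranged from 586 to 870 CPM (median 659) in the midbrain, from 470.1 to 587 (median 539) in the striatum and from 482 to 644 (median 557) in the PFC. The midbrain stood above the striatum in 12 of 12 mice and above the PFC in 10 of 11, mouse 1 being the exception. The striatum range only touched that of the midbrain, and the PFC range overlapped it. Of the striatum samples 11 of 12, and of the PFC samples 9 of 11, lay below the lowest midbrain sample. Its log2 fold change was -0.36 (SE 0.05, 95% confidence interval -0.47 to -0.25, adjusted p = 2.8e-05) for striatum against midbrain and -0.30 (SE 0.06, -0.41 to -0.19, adjusted p = 3.0e-04) for PFC against midbrain. Striatum and PFC differed by -0.06 (SE 0.06, adjusted p = 0.75). Per kilobase, the ratio of Itgb2 to Itgam was 1.13 ± 0.116 for midbrain (SD, n = 12), 0.894 ± 0.145 for striatum (n = 12) and 0.922 ± 0.111 for PFC (n = 11).

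Mouse 11 held the highest midbrain value of Itgb2, and without it the change from midbrain to PFC was -0.25 (adjusted p = 0.0012), under the minimum fold of 1.2. In mice 1 to 6 alone the changes were -0.16 (PFC) and -0.26 (striatum), with an adjusted p for region of 0.095, and in mice 7 to 12 alone -0.44 and -0.46 (adjusted p = 4.7e-04). With the markers of other brain cells as a covariate they were -0.26 and -0.26, also under the minimum fold (adjusted p = 8.0e-04 and 0.0075).

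**Figure D3:**
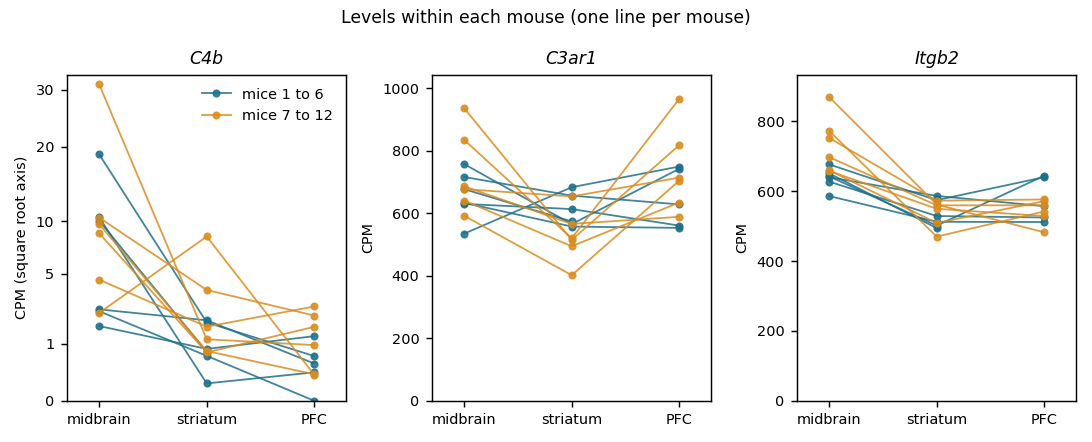
CPM of C4b (square root axis), C3ar1 and Itgb2 in the 3 regions, with 1 line per mouse, coloured by mice 1 to 6 and mice 7 to 12. Lines for Itgb2 fall from midbrain to striatum in all 12 mice, those for C4b in 11 of 12 and those for C3ar1 in 11 of 12.

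Males and females were compared with the same rule on p and fold change. By edgeR, 0 of 9 transcripts were called for the main effect of sex (4.13% of all genes), and 0 of 9 had an unadjusted p under 0.05. DESeq2 and limma-voom also called 0. Within a region the counts were 0 of 9 in the midbrain (4.84% of all genes), 0 of 9 in the striatum (2.28%) and 0 of 9 in the PFC (5.29%), with 0 at an unadjusted p under 0.05 in each. The log2 fold change of males over females ran from -0.06 (C3, SE 0.62) to 0.18 (C4b, SE 0.47). For the C1q chains and the receptors the 95% confidence intervals lay within -0.22 and 0.22, whereas those of C3 and C4b reached from -1.31 to 1.197 and from -0.78 to 1.15. No interaction of region and sex was called at an adjusted p under 0.05 for any of the 9 (edgeR and DESeq2, 0 of 9, of which 0 had an unadjusted p under 0.05 in edgeR) or for any other gene in edgeR (0% of 21236, 632 at an unadjusted p under 0.05).

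The C1q chains varied together from mouse to mouse. For each mouse, the mean deviation of log2 CPM from the mean of its region and sex was taken over its regions, and Pearson's r was computed over the 12 mice for all 36 pairs of members, with two-sided permutation tests. 2 pairs passed at an adjusted p under 0.05. C1qa and C1qc had r = 0.93 (permutation p = 4.0e-05, adjusted p = 0.0014) and Spearman's rho = 0.92 (permutation p = 7.0e-05, adjusted p = 0.0025). C1qb and C1qc had r = 0.89 (permutation p = 1.2e-04, adjusted p = 0.0022) and rho = 0.70 (permutation p = 0.014, adjusted p = 0.13). For each pair, the 2 mice farthest from the median of its first gene (C1qa or C1qb) were then left out. These r were 0.80 and 0.72 (permutation p = 0.0020 and 0.017) and no pair passed (adjusted p = 0.072 and 0.21). The calls at that threshold were thus not kept, and with fewer mice the test also has less power. Within mice 1 to 6 and mice 7 to 12, r was 0.96 and 0.91 for C1qa with C1qc and 0.97 and 0.96 for C1qb with C1qc.

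C1qa and C1qb had r = 0.73 over all 12 mice (rho = 0.64, permutation p = 0.0075 and 0.030, adjusted p = 0.090 and 0.13), and 0.33 without the 2 farthest mice. Taken by set, r was 0.88 among mice 1 to 6 and 0.95 among mice 7 to 12. The sets of mice differed in the ratio of these chains. Per kilobase and averaged over the samples of a mouse, C1qa over C1qb was 0.389 ± 0.0125 (SD, n = 6 mice) in mice 1 to 6, with a range of 0.374 to 0.411. It was 0.337 ± 0.00808 (n = 6) in mice 7 to 12, with a range of 0.330 to 0.351. The means of the mice thus did not overlap between the sets, whereas the ratios of single samples did. C1qa was lower in mice 7 to 12 by a log2 fold change of -0.25 (SE 0.05, adjusted p = 1.3e-04) and C1qc by -0.11 (SE 0.04, adjusted p = 0.021), while C1qb changed by -0.05 (SE 0.04, adjusted p = 0.43). The other members had adjusted p values of 0.094 or more in that comparison. It treats samples of the same mouse as independent although each set is made of whole mice, so its SE and p values can be too small.

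**Figure D4:**
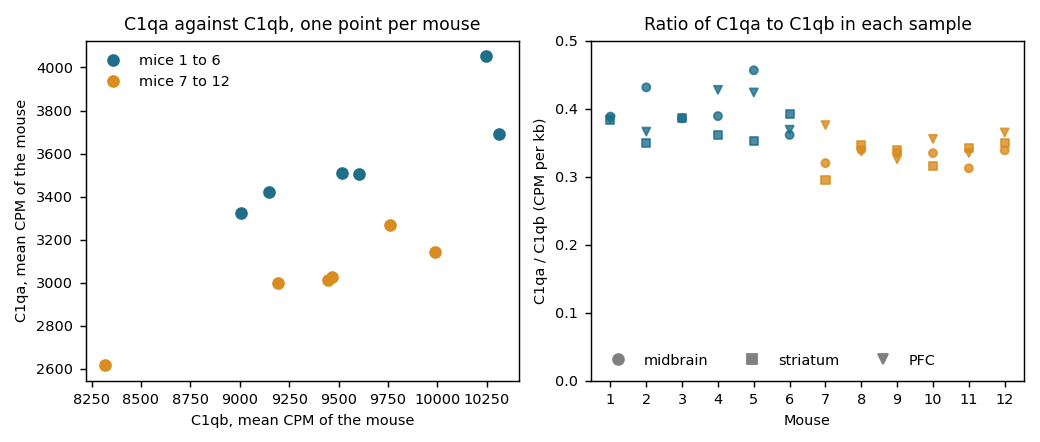
Left, mean CPM of C1qa against that of C1qb, 1 point per mouse, both axes not starting at 0. Right, ratio of C1qa to C1qb per kilobase in each of the 35 samples by mouse. In the means on the left, mice 1 to 6 lie above mice 7 to 12 at a given level of C1qb. The ratios of single samples on the right overlap between the sets.

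The transcripts most like each member were sought among the genes with a mean of at least 8 CPM by Pearson's r of log2 CPM over the 35 samples, which share 12 mice, so that r is a description only. C1qa was most like Tyrobp, a signalling adaptor of microglial receptors (r = 0.94), and Uqcrq, a subunit of respiratory complex III (r = 0.94). C1qb was most like C1qc (r = 0.80) and Gngt2 (r = 0.80). C1qc was most like Cyba, a subunit of the phagocyte oxidase (r = 0.91), and C1qa (r = 0.89). Removing the mean of each region left Tyrobp, Uqcrq, Cyba and C1qa in place, and put Ergic3 (r = 0.84) before C1qc for C1qb.

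The receptors had other neighbours. C3ar1 was most like Tlr2, a Toll-like receptor (r = 0.87), and Tnfrsf12a (r = 0.87), and C5ar1 most like Arf2 (r = 0.85) and Trim47 (r = 0.83), or Cd14, the co-receptor for lipopolysaccharide (r = 0.88), once region means were removed. Itgam was most like Nckap1l, an actin regulator of blood cells (r = 0.86), and Dock11 (r = 0.81), and Itgb2 most like Hsd17b4, a peroxisomal enzyme (r = 0.82), and Tpst1 (r = 0.80). C4b was most like Axl, a receptor for dying cells (r = 0.85), and Itgax (r = 0.80), and after removal of region means Apoe (r = 0.68) and Axl (r = 0.68). C3 was most like Psap (r = 0.66) and Ints3 (r = 0.65).

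Of 49 other complement genes listed, 32 were in the table. For these, the region test passed for 7 (8.89% of all genes): the classical and lectin pathway proteases C2 and Masp1; the regulators Clu and Susd4; and Itgax, Cd93 and Lrp1, receptors that bind complement or take up tagged material. PFC and midbrain differed for 7 of 32 (5.99%), 3 higher and 4 lower in the PFC. Striatum and midbrain differed for 6 of 32 (6.47%), 3 higher and 3 lower in the striatum, and striatum and PFC for 5 of 32 (3.14%), 4 higher and 1 lower in the striatum, a count that was 3 without mouse 1. The median log2 fold change over the 32 was 0.03, 0.01 and 0.21 in these pairs.

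Itgax, the CD11c chain of complement receptor 4, lies 11.1 kb from Itgam at chr7:128129547-128150657. It ranged from 7.85 to 21.2 CPM in the midbrain, from 4.03 to 11.7 in the striatum and from 2.08 to 10.1 in the PFC, and was highest in the midbrain in every mouse. The log2 fold change was -1.66 (SE 0.22, adjusted p = 1.6e-06) for PFC and -1.09 (SE 0.21, adjusted p = 7.9e-04) for striatum against midbrain, and 0.57 (SE 0.22, p = 0.013, adjusted p = 0.25, edgeR) for striatum against PFC. Within mice 1 to 6 the changes from the midbrain were -1.71 and -1.12, and within mice 7 to 12 they were -1.71 and -1.11. Per kilobase, Itgax was at 0.0168 ± 0.00380 of the level of Itgam for midbrain (SD, n = 12), 0.00779 ± 0.00220 for striatum (n = 12) and 0.00538 ± 0.00245 for PFC (n = 11).

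Masp1, a protease of the lectin pathway, was also highest in the midbrain in every mouse, at 3.56 ± 0.890 CPM (SD, n = 12) against 2.03 ± 0.657 for striatum (n = 12) and 1.62 ± 0.768 for PFC (n = 11). The log2 fold changes of Masp1 were -1.14 (adjusted p = 5.1e-04) for PFC and -0.81 (adjusted p = 0.013) for striatum. C2, which lies at chr17:34862604-34898265 next to Cfb, was near the limit of detection, at 0.411 ± 0.410 CPM in the midbrain, 0.108 ± 0.0750 in the striatum and 0.0649 ± 0.0499 in the PFC. Its region effect (adjusted p = 0.0061) did not pass with the mouse as a replicate block (adjusted p = 0.075), nor within mice 1 to 6 (adjusted p = 0.15) or mice 7 to 12 (adjusted p = 0.18). C4a, at mean levels of 0.0111 to 0.0484 CPM per region, and Cfb, at 0.0258 to 0.0580 CPM, had means around or below that limit and did not pass.

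Among regulators, Cr1l, a membrane regulator of C3 activation, was at 144 ± 15.98, 132 ± 12.8 and 135 ± 13.7 CPM for midbrain, striatum and PFC and did not pass (adjusted p = 0.40). Susd4 rose to 0.539 CPM in the PFC from 0.103 in the midbrain, a call that was lost with the mouse as a replicate block (adjusted p for region 0.064). Its log2 fold change for PFC against midbrain was 4.44 among mice 1 to 6 and 1.66 among the others, with adjusted p for region of 0.058 and 0.45. For striatum against midbrain it was 1.35 (p = 0.048, adjusted p = 0.24, edgeR), a call lost when any of 7 mice was left out.

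Clu, a secreted regulator of the terminal pathway that astrocytes express strongly, was at 14.6 ± 4.90 CPM for midbrain (SD, n = 12), 49.8 ± 20.4 for striatum (n = 12) and 30.0 ± 25.0 for PFC (n = 11). The striatum exceeded the midbrain in 12 of 12 mice, with a log2 fold change of 1.77 (SE 0.33, adjusted p = 6.7e-04). With the markers of other brain cells as a covariate this was 0.61, and the adjusted p for region was 0.11. For PFC against midbrain Clu changed by 1.04 (SE 0.33, adjusted p = 0.053), but by -0.44 within mice 1 to 6 and by 1.82 within mice 7 to 12.

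Lrp1, an endocytic receptor that binds C1q-tagged material, was at 132 ± 28.7 CPM for midbrain (SD, n = 12), 279 ± 63.3 for striatum (n = 12) and 168 ± 47.4 for PFC (n = 11). It was highest in the striatum in every mouse. Lrp1 had a log2 fold change for striatum of 1.09 (SE 0.13, adjusted p = 1.2e-06) against midbrain and 0.73 (SE 0.14, adjusted p = 0.0047) against PFC. For PFC against midbrain it was 0.36 (SE 0.14, p = 0.011, adjusted p = 0.12, edgeR), but 0.17 within mice 1 to 6 and 0.20 with the markers of other brain cells as a covariate, neither of which was called. Cd93 passed the region test (adjusted p = 0.0041) at mean levels of 0.442, 0.243 and 0.00925 CPM in midbrain, striatum and PFC. A single midbrain sample, that of mouse 6 with the highest border macrophage sum (128 CPM), held 3.63 CPM. The part of border macrophages in the level of Cd93 was not tested. With the mouse as a replicate block, Cd93 was called for PFC against midbrain (log2 fold change -3.47) and striatum against PFC (4.44). Striatum against midbrain (0.97) was not called in that fit. The region test of Cd93 did not pass within mice 1 to 6 (adjusted p = 0.083) or mice 7 to 12 (adjusted p = 0.079).

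**Figure D5:**
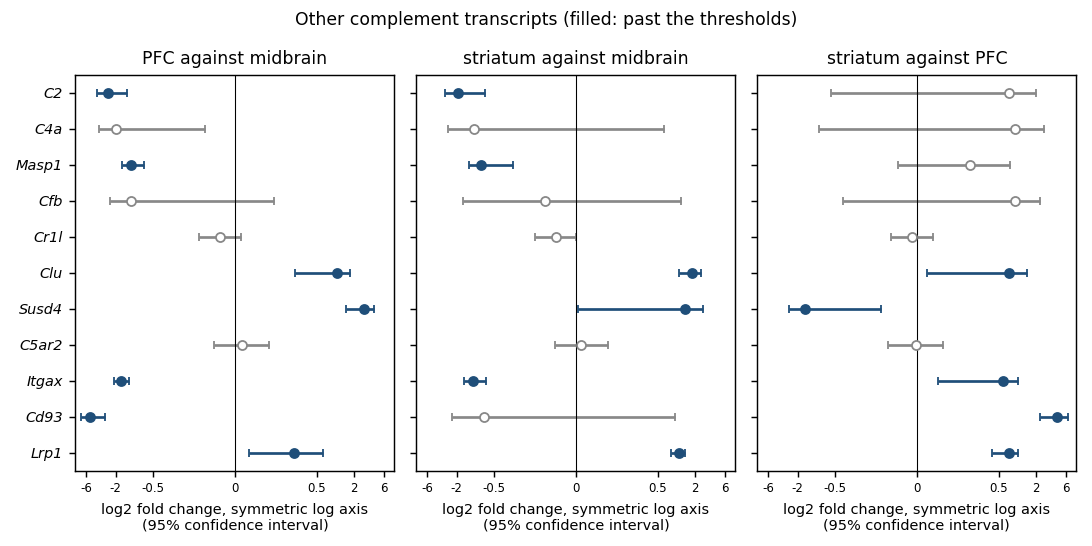
Log2 fold changes of 11 other complement transcripts for the 3 pairs of regions, with 95% confidence intervals, on a symmetric log axis. Filled points passed the region test and the pairwise rule. C2, Masp1 and Itgax were lower than in the midbrain in both other regions, and Clu, Susd4 and Lrp1 higher. The calls of C2 and Susd4 were lost with the mouse as a replicate block. With the markers of other brain cells as a covariate, the calls of Clu and that of Lrp1 for PFC were lost. For PFC against midbrain, Clu changed sign in the lower-numbered set of mice alone.

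For sex, 3 of these 32 transcripts were called (4.13% of all genes), each higher in males: Susd4 (0.415 against 0.140 CPM), Sez6 (0.428 against 0.192 CPM) and Cd59b (0.0287 against 0.00456 CPM, below the limit of detection in both sexes). The count was 5, 6 and 5 without mouse 1, 8 and 12, and between 2 and 4 without any other mouse. None of the 3 had an adjusted p under 0.05, the lowest being 0.11 for Susd4 (edgeR). C5ar2, at 66.1 CPM in males and 55.2 in females, had a log2 fold change of 0.26 (SE 0.07, p = 3.7e-04, adjusted p = 0.079, edgeR), just under the minimum fold. These p-values treat samples of the same mouse as independent. Counts were also summed per mouse, leaving out mouse 3, a male with no PFC sample. The sex effect then had p = 0.0030 for Susd4, 0.039 for Sez6, 0.054 for Cd59b and 0.017 for C5ar2 (edgeR, adjusted p of 0.84 or more).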

How the data were processed

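Microglia from midbrain, striatum and PFC were compared in 35 samples of 12 mice. The table deposited by the authors gives unnormalised read counts for Ensembl genes. To make it they used Trimmomatic for trimming and HISAT2 for alignment to the mouse genome GRCm38, and left out genes of low expression. The counting tool, annotation release and use of strand are not given in the sources used here, so C4b and C4a, and Itgam and an overlapping gene, are uncertain. Symbols and exon lengths came from GENCODE M21.

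Region and sex were tested by edgeR 4.0.16 under R 4.3.3, using TMM scaling and the quasi-likelihood F-test with robust dispersions over all 21236 genes, with terms for region and sex, or a mean for each region and sex for interactions. The thresholds follow the study, which gives an adjusted p for the region effect and a p with a minimum fold for pairs and sex, read here as unadjusted. Samples of the same mouse enter these fits as independent. The 9 members, the gene and marker lists, and the rule for named genes (the members, other complement genes with a region or sex call, and C4a, Itgax, C5ar2, Cr1l and Cfb, with 1 listed gene not reported here) were chosen with earlier results of these data known. Correlations used 100000 permutations. DESeq2 1.42.0 and limma 3.58.1 were used for alternatives, Python 3.11.15, scipy 1.17.1 and matplotlib 3.10.9 for tables and plots, and the fits were tested on simulated data.

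Samples with the same number come from the same mouse. The mean correlation of their deviations from group means was 0.22 for 34 pairs, against -0.04 for 170 pairs of different mice of the same sex (12297 genes).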

Additional observations from a re-analysis of the deposited data

Results flagged for a closer look

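Among 54 sets of 5 or 6 samples of the same region and sex, 7 held 1 sample that stood far from the others in 1 of the 9 transcripts, where chance flags about 1 in 20 sets. For C4b these were mouse 7 in the midbrain (31.0 CPM, the other 5 males at 1.73 to 10.04) and mouse 9 in the striatum (8.37 CPM, the other males at 0.725 to 2.01). Leaving out mouse 7 or mouse 9 changed no call of C4b. C3 was high in the striatum of mouse 10 (2.09 CPM, the other females at 0.0430 to 0.766). C1qa was high in the PFC of mouse 5 (4435 CPM, the other males at 2865 to 3197). C5ar1 was low in the striatum of mouse 3 (285 CPM, the other males at 435 to 480.2), the sample whose column name carries another region, and high in the PFC of mouse 11 (824 CPM, the other males at 378 to 492). Itgb2 was high in the midbrain of mouse 11 (870 CPM, the other males at 586 to 659.9), and without that mouse its change from midbrain to PFC was -0.25 on the log2 scale, under the minimum fold.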

How the results depend on the processing

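The direction of every called difference of C4b, C3ar1 and Itgb2 was kept under all alternatives run, but the number of the 9 transcripts called was not. In mice 1 to 6 alone 1 transcript was called for region (3 over all mice), 1 for PFC against midbrain (2), 1 for striatum against midbrain (3), 0 for striatum against PFC (1) and 1 for sex (0), C5ar1 with a log2 fold change of -0.29 (p = 0.035, adjusted p = 0.64, edgeR). Over all genes, mice 1 to 6 alone gave 512 calls for region (1888 over all mice) and 397 for PFC against midbrain (1271). They gave 411 for striatum against midbrain (1375), 279 for striatum against PFC (667) and 1114 for sex (878). In mice 7 to 12 alone 1 transcript was called for PFC against midbrain (905 of all genes). With fewer mice the tests have less power, and beyond that the cause was not tested. For striatum against PFC, requiring an adjusted p under 0.05 left 0 (121 of all genes). DESeq2 called 2 there (773 of all genes), C3 (log2 fold change 1.78) being added, for reasons not tested. Leaving out each mouse in turn gave 1 to 2 calls for PFC against midbrain, 0 to 1 for striatum against PFC and 2 to 3 for region and for striatum against midbrain. Over all genes these fits gave 1035 to 1207, 501 to 644, 1389 to 1854 and 1048 to 1347 calls in that order. C3 passed the region test in DESeq2 (adjusted p = 0.041) and with the markers of other brain cells as a covariate (adjusted p = 0.029). Of the 36 pairs, 2 passed over all mice and 0 without the 2 mice farthest from the median. Clu reversed for PFC against midbrain in mice 1 to 6 alone (-0.44 against 1.04 on the log2 scale).

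With the mouse as a replicate block the number of members called was 3, 2, 3 and 1 for region and the 3 pairs, as without it. Over all genes these counts were 2977, 1455, 1830 and 1032 (1888, 1271, 1375 and 667 without it). The block changed no call of a member. Among the other complement genes named it ended those of C2 and Susd4, and called Masp1 (striatum against PFC) and Sez6. Over all 21236 genes, the alternatives gave 512 to 2977 calls for region (1888), 397 to 1601 for PFC against midbrain (1271), 411 to 2022 for striatum against midbrain (1375), 121 to 1200 for striatum against PFC (667), 72 to 1114 for sex (878) and 0 to 1 for the interaction (0). C3, C4b, C2, Susd4, Cd93 and Cd59b rest on few reads, and a change of C3 within a region was not detectable at this depth in samples at or under 3 reads.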

Other observations

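The correlation of the C1q chains with Itgam had opposite signs in the mice numbered 1 to 6 and 7 to 12. Over mice, Pearson's r between C1qb and Itgam was -0.93 for the first set and 0.73 for the second, that between C1qc and Itgam was -0.89 and 0.56, and that between C1qa and Itgam was -0.84 and 0.71. Over all 12 mice these r were -0.39, -0.53 and -0.48, and none passed (permutation test, adjusted p = 0.44, 0.26 and 0.32). Each r within a set rests on 6 mice, the pairs are among the 36 computed, and the difference between the sets was not tested. In mouse 5, the midbrain sample held the highest C1qa (4627 CPM) and the lowest Itgam (664 CPM), C3ar1 (535 CPM) and C5ar1 (271 CPM) of that region.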
